A study of Homo sapiens with 12 samples.

Results

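RNA-seq read counts of SRA01/04 cells given both 1,2-DHN and asparagine were compared with those of untreated cells, across all genes. The comparison uses 6 of the study's 12 libraries, chosen by their labels: DHN-A 1, 2 and 3 against NC 1, 2 and 3. SRA01/04 is an immortalised human lens epithelial line, and 1,2-DHN is 1,2-dihydroxynaphthalene, a metabolite of naphthalene that is oxidised to a quinone. Every library was made from cells collected at 24 hours. NC cells had neither compound, NC-A cells asparagine alone, DHN cells 1,2-DHN alone and DHN-A cells both, with 3 libraries a group. NC-A and DHN are used here only to place the change from NC to DHN-A. The sources used here do not give the doses, the order of addition or the vehicle. Nothing in the labels says that replicates were separate cultures, so the p-values below measure only the spread between these libraries, which may be technical. All groups are the same line, and no primary lens or second line was compared.

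Quinones of naphthalene react with protein thiols and cycle between redox states. Cells meet misfolded protein with heat shock factor 1, which drives the HSP70 chaperones, and meet oxidants with NRF2, which drives heme oxygenase and quinone reductases. Asparagine is an amino acid that most cells can make with asparagine synthetase. A shortage or imbalance of amino acids, like several other stresses, leads to translation of ATF4, which drives amino acid synthesis, transport and tRNA charging. The hypoxia-inducible factors drive glycolysis genes, and the lens lives at low oxygen and depends on glycolysis. It also takes up osmolytes such as inositol and taurine.

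Promoters of 3 genes whose levels are described below are shown because each holds letters tied to the factor named with its gene group. They are the bases upstream of the start in RefSeq's GRCh38.p14 table, 5′ to 3′ on the gene's strand, cut where a GENCODE 29 exon of the gene begins. Capitals mark matches on either strand to GAANNTTC or TTCNNGAA, a pair of heat shock units, in HSPA6 (chr1:161524290-161524539, plus strand) and HSPA1A (chr6:31815293-31815463, plus strand), and to the interferon-stimulated element, searched as GAAA, 2 bases of any kind and GAAA, in IFIT1 (chr10:89392373-89392545, plus strand).
HSPA6: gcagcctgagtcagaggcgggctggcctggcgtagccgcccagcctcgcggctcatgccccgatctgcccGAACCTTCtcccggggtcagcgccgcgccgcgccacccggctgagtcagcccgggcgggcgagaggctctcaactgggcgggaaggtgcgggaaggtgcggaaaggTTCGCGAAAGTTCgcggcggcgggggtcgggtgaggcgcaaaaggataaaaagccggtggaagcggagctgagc
HSPA1A: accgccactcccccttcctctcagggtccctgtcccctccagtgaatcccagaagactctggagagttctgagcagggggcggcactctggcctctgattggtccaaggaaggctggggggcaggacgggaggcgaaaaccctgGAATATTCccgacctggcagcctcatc
IFIT1: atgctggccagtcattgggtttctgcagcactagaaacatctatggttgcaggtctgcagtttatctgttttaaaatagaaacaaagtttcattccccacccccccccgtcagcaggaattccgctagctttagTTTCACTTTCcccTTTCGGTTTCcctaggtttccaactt
The HSPA6 window has 3 matches, the last of which overlap, HSPA1A has 1 and IFIT1 has 2. Among all 27303 promoters in the table, 11.7% of those 250-base windows held a heat shock pair and 3.07% an interferon element; over the 11428 of tested genes the shares were 8.73% and 2.55%. Of the heat shock list's members with a promoter in the table, 10 of 23 held a pair, and of the interferon list's, 16 of 28 held its element. The ATF4-type element TGATGNAA was in 3 of 31 promoters of the ATF4 list (ASNS, CHAC1 and ATF3), in 3.19% of all promoters and in 1.49% of those of tested genes. A match is a description of letters, not of a bound site.

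In all, 3769 of 17889 tested genes differed between DHN-A and NC (21.1%), with 1758 higher (9.83%) and 2011 lower (11.2%) at an adjusted p under 0.05 in edgeR's quasi-likelihood test. Most of these differences were small. The median size among called genes was 0.28 on the log2 scale, and only 240 genes (1.34%) were called with a change of at least 2-fold, 159 of them higher (0.889%) and 81 lower (0.453%). Counting without a model, the 3 DHN-A values lay wholly above the 3 NC values in CPM (counts over the scaled library size) for 3128 genes (17.5%) and wholly below for 3128 (17.5%), 6256 in all (35%). The fewest calls separated DHN-A from NC-A, 375 genes (2.1%), with 144 higher (0.805%) and 231 lower (1.29%), a balance that turned to 271 higher and 127 lower with no filter on low counts. From DHN it differed in 7455 genes (41.7%), 3743 higher (20.9%) and 3712 lower (20.8%). Set against the same NC libraries, DHN alone gave 6919 calls (38.7%), 3520 higher (19.7%) and 3399 lower (19%). NC-A alone gave 3612 (20.2%), 1668 higher (9.32%) and 1944 lower (10.9%). The change with both compounds differed from the sum of the changes with each, on the log2 scale, in 4592 genes (25.7%), 2361 of them upward (13.2%) and 2231 downward (12.5%), which is the interaction. The count against NC-A rested on single libraries: it was 143 without DHN-A 2, 170 without NC-A 3, 226 without NC-A 2 and 230 without DHN-A 1.

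**Figure D1:**
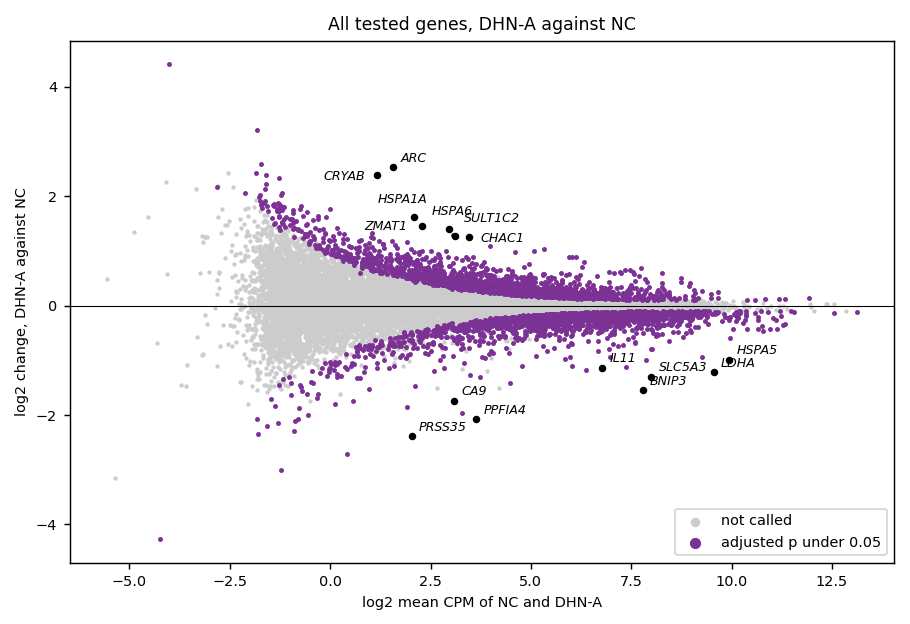
Change from NC to DHN-A (vertical axis, log2) of each of the 17889 tested genes against its mean level in the 6 libraries (horizontal axis, log2 CPM). Purple points are called, grey points are not, and black points carry names: the stress genes ARC and CRYAB lie highest among the named genes and PRSS35 and PPFIA4 lowest, while LDHA and HSPA5 are the named falls at high level.

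Total counts were 23816595 to 27526206 in DHN-A and 16514049 to 24225424 in NC. With all libraries thinned to the smallest total of the series, 12381071, DHN-A against NC gave 2976 calls. Mitochondrial symbols took 2.73% to 3.23% of counts in the 12 libraries. NC-A 1 stood apart from the rest on the leading principal component, at -65.1, with NC-A 2 and 3 at -12.5 and -10.4. The calls given for NC-A against NC include NC-A 1 and were not counted again without it. No pair of replicates differed by less than sampling noise. Among 29 lens markers, 10 had enough counts to test. Summed over the 29, they reached 248.7 to 260.9 CPM in NC and 236.6 to 251.6 CPM in DHN-A, most of it the connexin GJA1 and TDRD7. The transcription factor PAX6 was present in all 6 libraries at 24.1 to 26.9 CPM. In the same libraries SIX3 had 11.2 to 15.5 CPM and BFSP1 3.41 to 5.67 CPM. CRYGS, GJA3 and HSF4 were lower, at 1.18 to 2.90, 1.37 to 2.79 and 1.18 to 1.77 CPM. Several other lens markers were near 0 in these libraries: FOXE3 reached at most 0.386 CPM, MAF 0.241, PITX3 0.229 and CRYAA 0.0844 CPM. The gamma crystallins CRYGC and CRYGD had no count in any library, and the fiber genes LIM2 and MIP had none in the 6 compared.

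Each list count below is to be read beside the shares of all tested genes called. Against NC, 9.83% were higher in DHN-A and 11.2% lower. Against DHN the shares were 20.9% and 20.8%, and against NC-A 0.805% and 1.29%. For DHN against NC they were 19.7% and 19%, and for NC-A against NC 9.32% and 10.9%. Heat shock genes split between DHN-A and NC. Of 26 tested heat shock chaperones, 4 were higher (15.4%) and 8 lower (30.8%), and the median change was -0.07, against 0.00 over all tested genes. The 4 were the stress-inducible HSP70 genes HSPA6 and HSPA1A, the small heat shock protein and lens crystallin CRYAB, and SERPINH1, a collagen chaperone. The 8 lower ones included the cochaperones HSPH1 and DNAJA1, which fell by 0.33 and 0.29 on the log2 scale. HSPH1 had 458 ± 15.5 CPM in NC, 360 ± 4.61 CPM in NC-A and 364 ± 11.1 CPM in DHN-A. With 1,2-DHN alone, 23 of the 26 were higher than in the same NC libraries and the median was 0.92. None of the 26 was higher in DHN-A than in DHN, and 23 were lower. In NC-A, 11 of the 26 were lower than in NC and 1 higher, with a median of -0.15. Against NC-A, 6 were higher in DHN-A (4 to 6 over left-out libraries) and 1 lower.

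HSPA6 (chr1:161524540-161526910), whose protein is made almost only under stress, had 3.73, 4.49 and 4.605 CPM in NC and 12.5, 11.6 and 10.04 CPM in DHN-A. All 3 DHN-A libraries lay above all 3 NC libraries, and both groups were far below DHN, with 505, 493 and 511 CPM. The change from NC was 1.40 ± 0.095, adjusted p = 3.59e-16. Against DHN it was -5.46 ± 0.056, adjusted p = 1.58e-49, a 44.02-fold lower level. HSPA6 was also higher in DHN-A than in NC-A, by 1.77 ± 0.11. HSPA1A (chr6:31815464-31817946) had 3.04, 1.45 and 1.901 CPM in NC, 5.500, 6.61 and 6.86 CPM in DHN-A and 69.8, 67.1 and 69.3 CPM in DHN. Its groups did not overlap, and the change from NC was 1.61 ± 0.15, adjusted p = 2.89e-11. HSPA1B, a near-identical neighbour of HSPA1A, had 59.6 ± 8.49 CPM (SD) in NC and 56.7 ± 3.505 CPM in DHN-A, and its change from NC, -0.08 ± 0.077, was not called. How the authors' counting divided reads between these copies is not given, so the HSPA1A value is uncertain. HSPA1L, the third gene of this cluster and not a member of the list, rose by 1.18 ± 0.21 from 1.81 ± 0.321 CPM. Unlike HSPA6 and HSPA1A, it was higher in DHN-A than in DHN (0.66 ± 0.20). It was also higher in NC-A than in NC (0.86 ± 0.22), and DHN was not called against NC.

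CRYAB (chr11:111908565-111923722), which encodes alpha B-crystallin, had 0.373, 1.06 and 0.676 CPM in NC and 3.67, 3.97 and 3.803 CPM in DHN-A. These groups did not overlap, and the change was 2.39 ± 0.24, adjusted p = 1.04e-10, or 5.23-fold. The DHN libraries were higher still, at 12.1, 10.8 and 9.39 CPM, and the NC-A libraries, at 1.18, 1.38 and 0.747 CPM, overlapped NC. In GENCODE 29, 20.6% of the exon bases of CRYAB lie opposite another gene, whose reads cannot be told apart from its own without a known strand setting. Among the genes named here ARC had the largest rise. Both CRYAB and ARC are low genes, averaging 57 and 75 counts over the 6 libraries compared, so their fold changes rest on few counts. ARC (chr8:142611044-142614472), an immediate early gene of neurons that other cells also induce, went from 0.746, 0.772 and 1.06 CPM in NC to 4.53, 4.97 and 5.83 CPM in DHN-A, a change of 2.53 ± 0.18, adjusted p = 3.48e-15. In DHN its values were 53.8, 57.7 and 62.97 CPM, above every other library. By contrast the cochaperone DNAJB1 stood at 188 ± 7.65 CPM in NC and 184 ± 3.78 CPM in DHN-A, with 463 CPM in DHN, and its change from NC, -0.03 ± 0.039, was not called. The small heat shock gene HSPB1 was likewise not called against NC (-0.07 ± 0.038) but was 0.24 ± 0.039 above NC-A.

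Immediate early genes as a group lay near NC: of 34 tested members, 7 were higher (20.6%) and 5 lower (14.7%, 3 without NC 2), with a median of 0.01. EGR1, a growth factor-induced transcription factor, rose from 21.6, 23.3 and 24.7 CPM to 33.6, 33.7 and 32.9 CPM (0.52 ± 0.062, adjusted p = 1.01e-08). FOSB had 2.89 ± 0.102 CPM in NC, 2.303 ± 0.281 CPM in DHN-A and 43.2 ± 3.32 CPM in DHN, and was not called against NC (-0.32 ± 0.16). Against DHN, 27 of the 34 were lower in DHN-A and 3 higher.

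**Figure D2:**
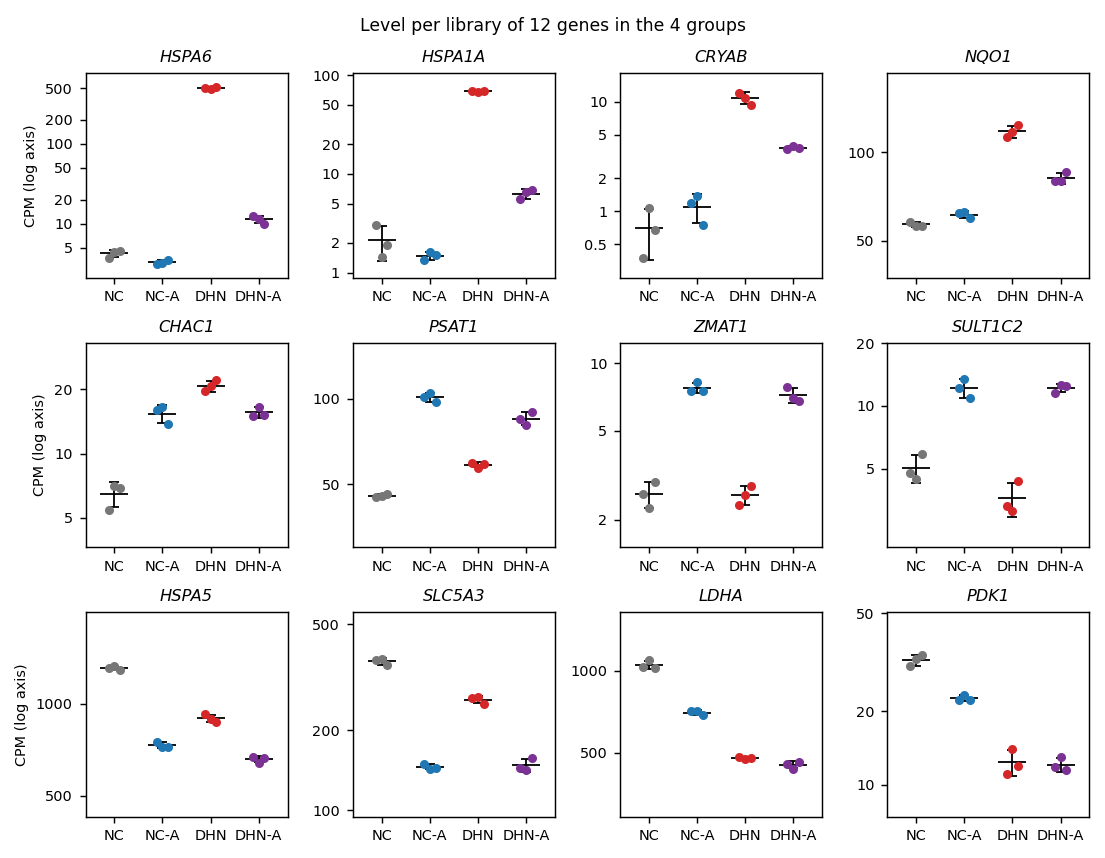
CPM per library on log axes for 12 genes in NC, NC-A, DHN and DHN-A. Each point is a library and the bars give the mean and SD of 3. HSPA6, HSPA1A, CRYAB and NQO1 lie between NC and DHN in DHN-A, CHAC1, PSAT1, ZMAT1 and SULT1C2 lie near NC-A, HSPA5 and SLC5A3 are low in NC-A and DHN-A, and LDHA and PDK1 in DHN-A lie near DHN.

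NRF2 targets were partly above NC. Of 36 tested, 12 were higher (33.3%) and 5 lower (13.9%, 3 without DHN-A 2), the median being 0.11. HMOX1, which encodes the heme-degrading heme oxygenase 1, had 29.8, 30.99 and 35.9 CPM in NC, 48.1 ± 1.69 CPM in DHN-A and 139, 132 and 141 CPM in DHN. Its DHN-A libraries all exceeded NC, by 0.57 ± 0.060, adjusted p = 4.58e-10, and did not differ beyond the test from NC-A (0.13 ± 0.061). NQO1, a quinone reductase, had 57.98, 56.3 and 56.4 CPM in NC and 79.6, 79.8 and 85.4 CPM in DHN-A (0.52 ± 0.049, adjusted p = 1.03e-11). It was also 0.41 ± 0.050 above NC-A, and its groups did not overlap. An antisense gene covers 17.7% of its exon bases. Thioredoxin reductase TXNRD1 and the ferritin light chain FTL rose by 0.26 and 0.27. GCLM, a subunit of the enzyme that starts glutathione synthesis, was among the lower targets, at 74.96 ± 1.65 CPM in NC and 67.3 ± 1.78 CPM in DHN-A (-0.16 ± 0.046, adjusted p = 0.0115), a call lost without DHN-A 1 (adjusted p = 0.0697). Sulfiredoxin, SRXN1, was not called (0.09 ± 0.17). It averaged 94.2 counts over the 6 libraries, and 85.0% of its exon bases lie in another gene on the same strand, so its level is uncertain. The cystine carrier SLC7A11, which ATF4 drives too, rose from 48.5 ± 2.45 to 90.05 ± 1.52 CPM (0.90 ± 0.050, adjusted p = 5.25e-19), near its level in NC-A (91.2 ± 4.75 CPM). Against DHN, 26 of the 36 targets were lower in DHN-A, and against NC-A 5 were higher and none lower.

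Targets of the aryl hydrocarbon receptor, which binds ring compounds and drives CYP1A1, were called in part. Of 6 tested, 3 were higher: NQO1, the receptor's repressor AHRR and CYP1A1, the last at a low level. AHRR, at 71.96 CPM in NC and 80.6 CPM in DHN-A, rose by 0.16 ± 0.047, adjusted p = 0.00953, with an adjusted p of 0.0626 without NC 2. CYP1A1 had 1.43, 1.74 and 1.01 CPM in NC and 2.55, 1.87 and 2.69 CPM in DHN-A, and its change, 0.77 ± 0.25, adjusted p = 0.0198, was lost without NC 3, DHN-A 1 or DHN-A 3 (adjusted p = 0.155, 0.0795 and 0.0849), with DESeq2 (0.0536) and after thinning (0.0858).

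Most genes of amino acid supply were higher. Of 38 tested members of the ATF4 and amino acid list, 30 were higher in DHN-A than in NC and 5 lower, against 9.83% and 11.2% of all genes, and the median was 0.43. Against NC-A none of the 38 was higher and 5 were lower. Relative to DHN the list split, 14 higher and 12 lower. CHAC1 (chr15:40952962-40956519), a glutathione-degrading enzyme, had 5.47, 7.096 and 6.89 CPM in NC, 15.1, 16.6 and 15.2 CPM in DHN-A, 15.97, 16.5 and 13.7 CPM in NC-A and 19.6, 20.7 and 22.1 CPM in DHN. NC lay below all other libraries, and the change from NC was 1.25 ± 0.10, adjusted p = 3.34e-13. The transcription factor ATF4 itself rose from 248, 236 and 251 CPM to 375, 370.4 and 362 CPM (0.59 ± 0.036, adjusted p = 1.37e-17). In NC-A it was at 400.3, 407 and 398 CPM and in DHN at 387 ± 9.29 CPM, and neither group differed from DHN-A beyond the test (-0.12 ± 0.036 and -0.07 ± 0.036). With DESeq2 ATF4 was called lower in DHN-A than in NC-A (adjusted p = 0.00541). Asparagine synthetase, ASNS, had 2.67, 1.59 and 1.99 CPM in NC and 3.95, 4.85 and 4.05 CPM in DHN-A (1.06 ± 0.19, adjusted p = 3.55e-05). Those counts are low, and 44.6% of its exon bases lie in another gene on the same strand in GENCODE 29, so its level is uncertain.

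PSAT1, which makes serine's precursor, was 45.1, 45.6 and 46.3 CPM in NC and 84.7, 80.7 and 89.7 CPM in DHN-A (0.90 ± 0.050, adjusted p = 6.31e-19). It lay above DHN by 0.54 ± 0.050 and below NC-A (-0.25 ± 0.048). PCK2, the mitochondrial PEP carboxykinase, rose by 0.88 ± 0.053 and was 0.64 ± 0.052 above DHN. TRIB3 and SESN2, feedback genes of the stress response, rose by 0.51 and 0.56 against NC, and stood at -0.57 and -0.85 relative to DHN. DDIT4, an inhibitor of mTORC1, and the glutamine and asparagine carrier SLC38A2 were among the 5 lower members: they fell by 0.51 and 0.50. SLC38A2 had 258, 275 and 248 CPM in NC and 183, 183 and 187 CPM in DHN-A. The death-linked factor DDIT3 was not called (0.11 ± 0.096), although DHN, at 25.5 ± 0.979 CPM, was above both DHN-A (13.4 ± 1.19 CPM) and NC (12.5 ± 1.71 CPM). An antisense gene lies over 31.6% of its exon bases. Outside the list, ULBP1, a ligand of the NKG2D receptor of natural killer cells, rose from 3.98, 4.83 and 5.45 to 11.6, 11.2 and 12.6 CPM (1.29 ± 0.12, adjusted p = 6.56e-12).

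Of 20 cytosolic aminoacyl-tRNA synthetases, which load amino acids onto tRNA, 12 rose and 2 fell, with a median of 0.21. The glycyl enzyme GARS1 had 163, 169 and 163 CPM in NC and 272, 261 and 266 CPM in DHN-A (0.69 ± 0.039, adjusted p = 5.59e-19). The tyrosyl, cysteinyl and alanyl enzymes YARS1, CARS1 and AARS1 rose by 0.62, 0.60 and 0.55. NARS1, which charges tRNA with asparagine, rose by 0.31 ± 0.040, from 166 ± 7.55 to 207 ± 1.39 CPM. In NC-A, 12 of the 20 were higher than in NC and 1 lower, with a median of 0.33. Against NC-A, 5 of the 20 were lower in DHN-A (1 without NC-A 3, 2 without DHN-A 2) and none higher. GARS1 was -0.19 ± 0.038 from NC-A.

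Endoplasmic reticulum genes moved the other way. Of 24 tested genes of the reticulum stress list, 18 were lower in DHN-A than in NC and 2 higher, and the median was -0.28. HSPA5 (chr9:125234853-125241330), the main chaperone of the reticulum, had 1306, 1327 and 1291 CPM in NC and 671, 641 and 663 CPM in DHN-A. The groups were wide apart (-0.99 ± 0.034, adjusted p = 4.24e-27), and DHN-A was below DHN as well (-0.44 ± 0.034). The chaperone-linked genes MANF, HYOU1 and CALR fell by 0.70, 0.51 and 0.43. The 2 higher members act elsewhere in the pathway: the sensor ERN1 rose by 0.42 ± 0.074, and PPP1R15A, a phosphatase subunit that reverses the block on translation, rose by 0.42 ± 0.037. In NC-A, 15 of the 24 were lower than in NC and 2 higher, with a median of -0.22.

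**Figure D3:**
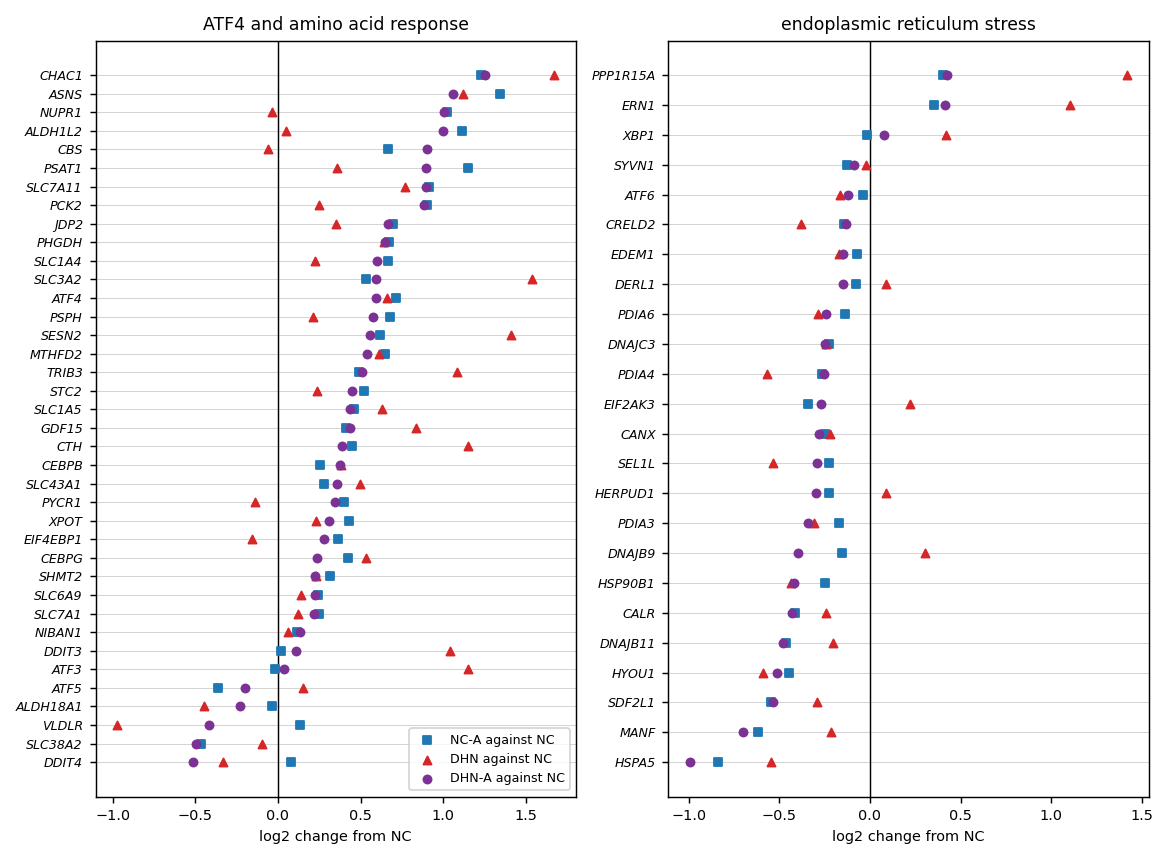
Log2 change from NC of each tested member of the ATF4 and amino acid list (left, 38 genes) and of the endoplasmic reticulum stress list (right, 24 genes) in NC-A, DHN and DHN-A. The 3 comparisons share the NC libraries. In DHN-A 30 members on the left were called higher, CHAC1 at the top, and 18 on the right were called lower, HSPA5 at the bottom.

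Targets of p53, which halts division and repairs DNA, rose or were not called: 15 of 24 tested were higher (62.5%) and none lower, with a median of 0.24. In NC-A, 13 of the 24 were higher than in NC and none lower, with a median of 0.19. CDKN1A, the cell cycle inhibitor p21, had 267, 260.3 and 281 CPM in NC, 338, 357 and 332 CPM in DHN-A and 461, 457 and 496 CPM in DHN. Its change from NC was 0.34 ± 0.040, adjusted p = 4.56e-09. GADD45A, a growth arrest gene, rose by 0.60 ± 0.042 and was not called against NC-A (0.01 ± 0.041). MDM2, the ligase that degrades p53, and RRM2B, a ribonucleotide reductase subunit, rose by 0.34 and 0.42. Mitosis genes were lower, 23 of 30 with none higher and a median of -0.19. AURKA, a spindle kinase, fell from 117, 118 and 113 to 89.4, 85.8 and 94.2 CPM (-0.37 ± 0.045, adjusted p = 1.38e-08). The proliferation marker MKI67, the checkpoint kinase BUB1 and the cleavage protein ANLN fell by 0.27, 0.31 and 0.28. Relative to DHN, 21 of the 30 were higher in DHN-A and 1 lower (0 without DHN 2, DHN 3, DHN-A 1 or DHN-A 2). In NC-A, 16 of the 30 were lower than in NC and none higher, with a median of -0.13. In bulk RNA, fewer cells in mitosis and less RNA of these genes per cell cannot be told apart. Of 34 DNA replication genes, 8 were lower (23.5%, 5 without NC 3) and none higher.

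Glycolysis genes were nearly all lower. Of 22 tested, 20 were lower in DHN-A than in NC and none higher, and the median was -0.52. PDK1, a mitochondrial kinase that inhibits pyruvate dehydrogenase, had 30.5, 32.7 and 33.7 CPM in NC and 11.8, 13.03 and 11.5 CPM in DHN-A (-1.42 ± 0.083, adjusted p = 1.88e-18). Its values in DHN were 11.1, 14.1 and 11.9 CPM, overlapping DHN-A (-0.04 ± 0.092), while NC-A lay between, at 22.2, 23.3 and 22.1 CPM. LDHA (chr11:18394388-18408425), the lactate dehydrogenase of muscle type, had 1032, 1094 and 1028 CPM in NC and 457, 437 and 464 CPM in DHN-A (-1.22 ± 0.035, adjusted p = 6.35e-30). The glucose carrier SLC2A1, the kinase PGK1 and the enolase ENO2 fell by 0.99, 0.94 and 0.80. Against NC-A, 16 of the 22 were lower and none higher. Against DHN, 4 were higher (18.2%, 2 without DHN 2) and 6 lower (27.3%), near the 20.9% and 20.8% of all genes. In NC-A, 19 of the 22 were lower than in NC and none higher.

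Hypoxia targets outside glycolysis fell too. Of 20 tested, 15 were lower and 1 higher, with a median of -0.62. PPFIA4, a liprin, had 21.1, 17.6 and 21.6 CPM in NC and 3.99, 5.47 and 4.84 CPM in DHN-A (-2.08 ± 0.12, adjusted p = 1.08e-18), a 4.22-fold fall. CA9, a carbonic anhydrase of the cell surface, had 12.4, 12.6 and 14.2 CPM and 3.49, 4.78 and 3.51 CPM (-1.74 ± 0.14, adjusted p = 1.34e-13). Of the exon bases of CA9, 38.5% lie opposite another gene, so its level is uncertain in the same way. BNIP3, which marks mitochondria for autophagy, had 327, 332 and 329.7 CPM and 113, 114 and 112 CPM (-1.54 ± 0.039, adjusted p = 4.15e-32). It was lower in DHN-A than in DHN (-0.26 ± 0.040) and in NC-A (-0.88 ± 0.040). In each of these genes the NC and DHN-A libraries did not overlap, which the rule for naming the largest falls required. The secreted peptide APLN, the collagen prolyl hydroxylase P4HA1 and NDRG1 fell by 1.26, 1.18 and 0.93. The 1 higher member was the angiogenic factor VEGFA, which rose by 0.19 ± 0.039, from 145 ± 1.06 to 166 ± 3.11 CPM. VEGFA is also a target of ATF4, and whether that bears on its rise was not tested. In NC-A, 15 of the 20 hypoxia targets were lower than in NC and 1 higher, with a median of -0.38.

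**Figure D4:**
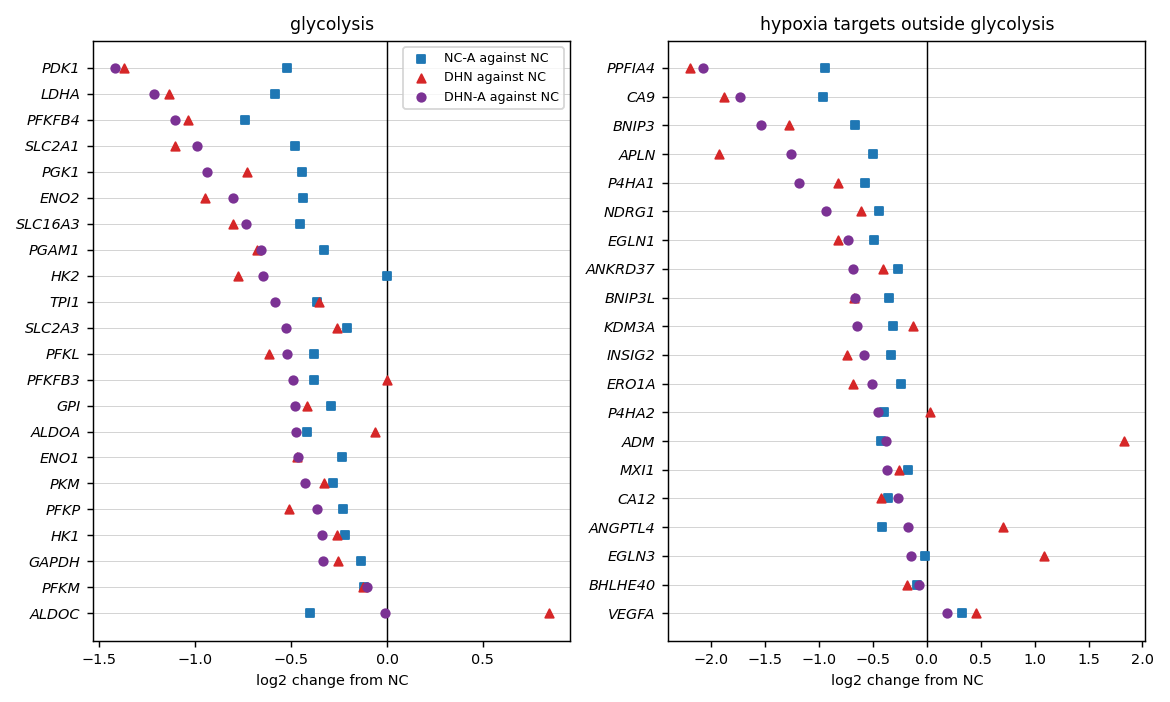
Log2 change from NC of each tested glycolysis gene (left, 22) and hypoxia target outside glycolysis (right, 20) in NC-A, DHN and DHN-A, which share the NC libraries. In DHN-A 20 genes on the left and 15 on the right were called lower, with PDK1 and PPFIA4 at the top, and VEGFA on the right was called higher.

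Osmolyte genes of the lens were lower. Of 7 tested members of osmolyte transport and the polyol pathway, 4 fell (57.1%) and none rose, with a median of -0.43. SLC5A3 (chr21:34073570-34106262), the inositol carrier, had 368, 369.6 and 351 CPM in NC, 144, 142 and 157 CPM in DHN-A and 149.8, 144 and 145 CPM in NC-A. DHN-A and NC-A overlapped, NC was above both, and the change from NC was -1.30 ± 0.041, adjusted p = 1.22e-28. The taurine carrier SLC6A6 had 86.6, 84.6 and 78.2 CPM in NC and 44.3, 40.6 and 45.2 CPM in DHN-A (-0.94 ± 0.054, adjusted p = 1.38e-18). Its NC-A libraries lay below those of DHN-A, at 34.3, 37.5 and 35.8 CPM, and DHN had 85.5, 82.8 and 78.2 CPM. NFAT5, the transcription factor that drives these carriers under osmotic load, and SORD, sorbitol dehydrogenase, fell by 0.45 and 0.43. Aldose reductase AKR1B1, which makes sorbitol, was not called (-0.08 ± 0.047). In NC-A, 4 of the 7 members were lower than in NC and none higher, with a median of -0.36.

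Matrix genes were lower than in NC and higher than in DHN. Of 32 tested matrix and basement membrane genes, 22 fell against NC and 2 rose (1 without NC 2 or DHN-A 2, or with DESeq2), with a median of -0.26. Against DHN 26 were higher and 2 lower (1 without DHN 1). Matrix genes were also lower in NC-A than in NC, 21 of the 32 with 1 higher and a median of -0.23. Against NC-A, 3 were lower in DHN-A and 1 higher (0 without NC-A 3 or DHN-A 3). LOX, the collagen cross-linking enzyme, had 52.4, 52.8 and 56.2 CPM in NC, 31.3, 28.9 and 30.9 CPM in DHN-A and 21.2, 22.3 and 20.9 CPM in DHN. Its DHN-A libraries lay between the others, -0.83 ± 0.060, adjusted p = 4.22e-15 from NC. COL6A3, a chain of collagen VI, had 344, 318 and 330.1 CPM, 247, 253 and 257 CPM and 142, 135 and 142 CPM in the same order (-0.39 ± 0.039, adjusted p = 1.04e-10). The microfibril protein FBN2 fell by 0.44. Thrombospondin THBS1 was the larger of the rises, from 356, 363 and 353 to 496, 485 and 531 CPM (0.50 ± 0.036, adjusted p = 5.43e-15). The protease PLAU, urokinase, rose by 0.41 ± 0.036 and the protease inhibitor TIMP3 fell by 0.39. PLAU has an antisense gene over 31.1% of its exon bases. The 10 fibroblast markers, among them COL1A1, COL1A2, COL3A1 and COL6A3 of the matrix list, summed to 1703 to 1807 CPM in NC and 1451 to 1516 CPM in DHN-A. Most of the sum was COL1A1, at 1019 to 1086 CPM in DHN-A. None of the 10 was at 0 in all libraries, but DCN was at 0 in every DHN-A library. In NC and DHN-A, LUM reached at most 0.211 CPM and PDGFRA 0.495 CPM. The part of the fibroblast markers in the matrix result was not tested.

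Interferon-response genes were lower than in NC by small amounts. Of 36 tested, 17 fell (47.2%) and 1 rose (2.78%), and the median was -0.09. The 1 rise became 0 without NC 1, NC 3, DHN-A 1 or DHN-A 3, with DESeq2 or after thinning. IFIT1, whose promoter is shown above and whose protein binds viral RNA, had 536, 564 and 546 CPM in NC and 378, 390.4 and 396 CPM in DHN-A (-0.50 ± 0.036, adjusted p = 3.53e-15). It did not differ from DHN beyond the test (-0.05 ± 0.037). OASL, a relative of the OAS sensors of viral RNA, and HERC5, an ISG15 ligase, fell by 0.58 and 0.53. MX1, a GTPase that blocks viruses, took another order: 155, 163 and 159.8 CPM in NC, 142, 141 and 144 CPM in DHN-A and 65.1, 66.3 and 67.9 CPM in DHN. The change of MX1 from NC was -0.16 ± 0.040, adjusted p = 0.00204, and DHN-A was 1.10 ± 0.043 above DHN. TNFSF10, the death ligand TRAIL, had 32.7, 35.3 and 33.6 CPM in NC, 23.5, 24.3 and 23.2 CPM in DHN-A and 7.66, 9.104 and 8.597 CPM in DHN. It was -0.52 ± 0.071 from NC and 1.47 ± 0.086 from DHN. Of the 36 interferon genes, 26 were higher in DHN-A than in DHN and 4 lower. In NC-A, 15 of the 36 were lower than in NC and 2 higher, with a median of -0.05.

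Inflammatory cytokine genes rose more often than they fell, 8 higher (42.1%) and 4 lower (21.1%) of 19 tested, with a median of 0.13. Over all genes the shares were 9.83% and 11.2%. IL1B, interleukin 1 beta, had 151, 157 and 148 CPM in NC, 227, 229 and 224 CPM in DHN-A, 181, 192 and 186 CPM in NC-A and 169, 174 and 169.5 CPM in DHN. DHN-A lay above all other libraries, 0.58 ± 0.039, adjusted p = 2.64e-16 from NC, 0.28 ± 0.039 from NC-A and 0.41 ± 0.039 from DHN. LIF, a cytokine of the IL6 family, rose by 0.57 ± 0.074. IL11, of the same family, moved the opposite way: 139, 154 and 160.1 CPM in NC and 67.7, 75.1 and 63.7 CPM in DHN-A (-1.13 ± 0.054, adjusted p = 3.38e-17), with 56.5, 54.4 and 51.5 CPM in NC-A and 178, 189 and 188 CPM in DHN. The chemokine CCL2 and NFKBIA, the inhibitor of NF-kappaB, fell by 0.65 and 0.29. Against NC-A 7 of the 19 were higher and none lower (4 higher without DHN-A 1 or without DHN-A 2).

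**Figure D5:**
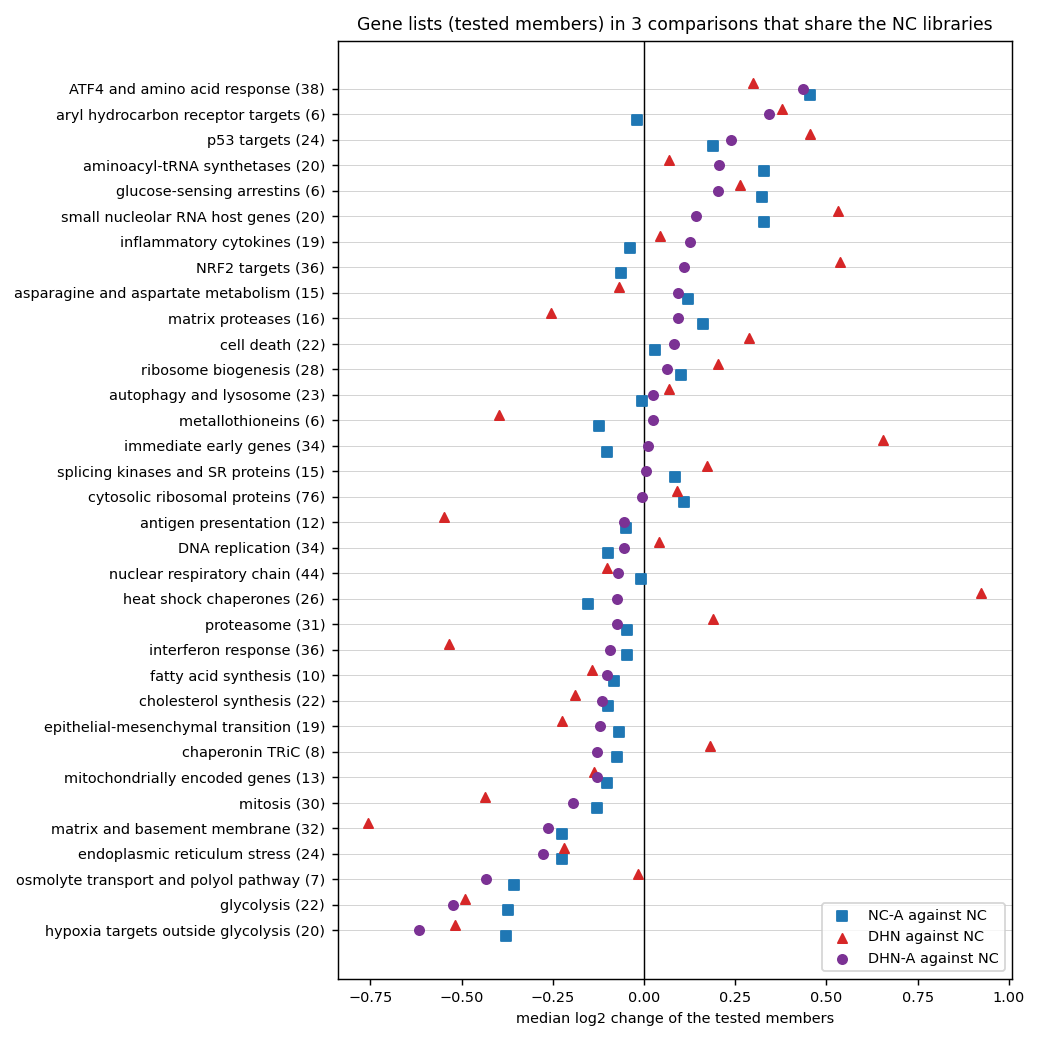
Median log2 change from NC of the tested members of 34 gene lists (number tested in brackets) in NC-A, DHN and DHN-A, which share the NC libraries. In DHN-A the medians run from -0.62 for hypoxia targets outside glycolysis to 0.43 for the ATF4 and amino acid list, and the heat shock median is -0.07 where that of DHN is 0.92.

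Several of the largest changes from NC belonged to no list. PRSS35, a protease-like secreted protein, had 5.22, 8.01 and 7.39 CPM in NC, 1.08, 1.64 and 1.24 CPM in DHN-A and 0.591, 1.38 and 0.976 CPM in NC-A (-2.39 ± 0.21, adjusted p = 3.26e-12), a 5.23-fold fall from NC. ZMAT1, a zinc finger gene, went from 2.61, 2.27 and 2.96 CPM in NC to 7.801, 6.99 and 6.78 CPM in DHN-A (1.46 ± 0.16, adjusted p = 8.06e-10), with 2.34, 2.57 and 2.83 CPM in DHN and 7.54, 8.21 and 7.52 CPM in NC-A. The sulfotransferase SULT1C2 went from 4.79, 4.44 and 5.87 to 11.6, 12.7 and 12.4 CPM (1.27 ± 0.13, adjusted p = 1.25e-10), with 3.304, 3.15 and 4.37 CPM in DHN and 12.2, 13.4 and 10.9 CPM in NC-A. In all of these DHN-A overlapped NC-A and not NC, the lack of overlap with NC being required by the rule that named them. The cilium-linked genes CFAP300 and WDR63 rose by 1.32 ± 0.26 and 1.24 ± 0.24, from 1.17 and 1.22 CPM, and the zinc finger gene ZNF114 fell by 1.31. Pseudogenes were among the largest changes as well. RPL7P9, a ribosomal protein pseudogene, had 2.67, 7.68 and 7.31 CPM in NC and 1.87, 1.57 and 1.49 CPM in DHN-A (-1.86 ± 0.28, adjusted p = 3.31e-05), and its reads may be shared with near-identical copies. NC 1 was lower than NC 2 and NC 3 in this gene.

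By gene type in GENCODE 29, the 976 antisense RNAs tested had a median change of 0.17 with 84 higher (8.61%) and 8 lower (0.82%), and the 734 long intergenic RNAs had 0.16 with 68 higher (9.26%) and 14 lower (1.91%). The 1058 processed pseudogenes had -0.33, with 11 higher (1.04%) and 59 lower (5.58%), and the 13310 protein-coding genes 0.00, with 1446 higher (10.9%) and 1882 lower (14.1%). Over all tested genes the shares were 9.83% higher and 11.2% lower. From NC to NC-A the medians were 0.19 for antisense RNAs, 0.20 for long intergenic RNAs and -0.31 for processed pseudogenes. From NC-A to DHN-A they were 0.0002, -0.02 and -0.002 in the same order. Processed pseudogenes took 0.332% to 0.387% of counts in NC and 0.252% to 0.357% in DHN-A. The sources used here give no strand setting for the counting, so reads from a gene and its antisense partner cannot be told apart. With noncoding genes and pseudogenes removed before the fit, 3771 genes were called. Of 76 cytosolic ribosomal protein genes, 5 were higher and 5 lower against NC, and left-out libraries moved these counts between 1 and 8 (higher) and between 2 and 8 (lower). Against NC-A, 22 of the 76 were lower in DHN-A (28.9%, 11 without DHN-A 2 and 12 without NC-A 2) and none higher. In NC-A, 36 were higher than in NC and none lower. Against DHN, 32 were lower in DHN-A and 5 higher. Among 31 proteasome subunits, 1 was higher and 5 lower against NC, while 26 were lower than in DHN. Of 13 genes encoded in mitochondria, 8 were lower (4 without NC 2) and none higher, and MT-CO3, a cytochrome c oxidase subunit, fell by 0.32.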

How the data were processed

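The authors deposited 1 table of raw read counts per gene symbol for the 12 libraries, whole numbers with differing totals. Per the labels' protocols, a Qiagen RNeasy kit gave the RNA and the library kit was a stranded one. Per the submitters' processing notes, reads were aligned with Bowtie to hg38. Neither the counting tool and its strand setting nor the annotation was found in those sources, and reads shared by near-identical or overlapping genes may be split.

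Of 60641 symbols, 17451 had no count and 17889 passed edgeR's filterByExpr (4 groups, minimum count 10). Symbols were matched to GENCODE release 29 (55381 matched 1 gene) for coordinates and gene types. An edgeR 4.0.16 quasi-likelihood model (robust, R 4.3.3) with TMM scaling and 1 mean per group was fitted to all 12 libraries. P-values were adjusted over all tested genes by Benjamini and Hochberg's method, with a threshold of 0.05, and ± after a log2 change is its standard error, derived from the test statistic and approximate for large changes. Each ± after a CPM mean is the SD of 3 libraries. Replicates varied beyond counting noise by 4.60% (square root of the common dispersion). The fit was tested on simulated counts.

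The comparison and the 34 pathway and 6 marker lists were chosen with earlier results of these data known, and no set test was run. Named genes are, of the called genes that averaged 50 counts or more and whose groups were disjoint, the 12 that rose most and the 12 that fell most, a set of stress genes, up to 4 called members a list with the smallest p, and the 6 largest interactions each way. Placeholder symbols were passed over. HSPA1B, DNAJA1, SERPINH1, DDIT4, SLC38A2, ERN1, PPP1R15A and VEGFA were added for description after their values were seen. The alternatives tried were DESeq2 1.42.0, limma-voom (limma 3.58.1), relative log expression factors, no filter, a minimum change of 1.2-fold, only the groups compared, a replicate block, thinning and each library left out. Same-numbered libraries did not deviate together (correlations of deviations from -0.176 to 0.229), so the numbers were not taken as pairs.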

Additional observations from a re-analysis of the deposited data

Results flagged for a closer look

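The change with both compounds together differed from the sum of the changes with each compound, by a test of that difference (the interaction in edgeR's joint fit), in 4592 genes. Negative values mean that DHN-A lay below that sum, positive values that it lay above it. Among genes called both here and against NC, with a mean of at least 50 counts over the 12 libraries and no placeholder symbol, the most negative values were HSPA6 at -5.09, ARC at -3.90, RASD1 at -3.74, ALOXE3 at -3.42, HSPA1A at -2.97 and FOS at -2.70. RASD1, a small GTPase of the Ras family, had 1.43, 1.400 and 1.18 CPM in NC, 1.11, 1.38 and 1.78 CPM in NC-A, 21.7, 25.7 and 26.1 CPM in DHN and 1.91, 1.87 and 2.23 CPM in DHN-A. ALOXE3, an epidermal lipoxygenase, had 1.57 ± 0.349, 3.38 ± 0.534, 17.2 ± 1.47 and 3.44 ± 0.386 CPM in the same order. FOS, a partner of JUN, had 4.15 ± 0.459, 2.39 ± 0.393, 33.8 ± 1.29 and 2.99 ± 0.316 CPM.

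Among the same genes the largest positive values were TNFSF10 at 1.68, GBP4 at 1.47, TENM2 at 1.37, IL4I1 at 1.33, CCL2 at 1.30 and AIM2 at 1.27. GBP4, an interferon-induced GTPase, had 97.8, 97.9 and 92.8 CPM in NC, 80.1, 76.4 and 75.01 CPM in NC-A, 27.7, 31.6 and 32.3 CPM in DHN and 69.3, 65.9 and 70.5 CPM in DHN-A. TENM2, a teneurin of cell adhesion, had 195 ± 5.32, 141 ± 5.86, 63.1 ± 1.46 and 118 ± 0.964 CPM in that order. IL4I1, an amino acid oxidase, had 31.3 ± 0.245, 28.6 ± 1.13, 11.4 ± 0.458 and 26.3 ± 1.29 CPM. Its change from NC to DHN-A (-0.25 ± 0.069) had an adjusted p of 0.0502 without DHN-A 2. For CCL2 the means were 14.8 ± 0.614, 7.69 ± 1.72, 7.31 ± 0.191 and 9.44 ± 0.926 CPM. For AIM2, a sensor of DNA in the cytosol, they were 5.91 ± 0.444, 4.73 ± 0.715, 2.28 ± 0.376 and 4.36 ± 0.363 CPM. None of these 12 interaction calls was lost in the alternatives run.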

How the results depend on the processing

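With relative log expression factors, DESeq2, limma-voom, no filter, only the groups compared, thinning, and (chosen after the data were seen) noncoding genes and pseudogenes removed, the number of genes called in DHN-A against NC was 2976 to 3834, beside 3769. Requiring a change of more than 1.2-fold left 503 calls there, 2566 against DHN, 17 against NC-A and 1411 in the interaction, since that test asks for larger changes. Leaving out each library in turn gave 2782 to 4059 calls against NC, 6575 to 7835 against DHN, 143 to 426 against NC-A and 4051 to 4503 in the interaction. For DHN-A against NC the lowest was without DHN-A 1. Of the single-gene differences given, 23 against NC, 17 against DHN and 14 against NC-A were lost under the 1.2-fold test or another setting, and all 12 interaction values kept their call. ATF4 against DHN was called after thinning (adjusted p = 0.0446). Against NC-A it was also called with only the groups compared, without DHN 3 and with noncoding genes and pseudogenes removed (adjusted p = 0.0427, 0.0478 and 0.0399). Calls higher against NC among the 76 ribosomal protein genes were 2 with relative log expression factors, DESeq2 or the block and 9 with noncoding genes and pseudogenes removed. With the replicate number as a block, which the labels do not tie to a shared day or culture, the counts were 3585, 7361, 334 and 4477. The interaction was not run with only the groups compared, since it needs all of them. Calls in DHN against NC and in NC-A against NC were not counted under any of these alternatives. Only differences that were not called changed sign, each near 0: HSPA1B against NC (-0.147 to 0.0548 over left-out libraries), GADD45A against NC-A (-0.0284 to 0.0363) and PDK1 against DHN (-0.108 to 0.0565), and the cause was not tested. Depth limits low genes such as CYP1A1, PROX1, RPL7P9, CRYAB and ARC, whose values rest on few counts.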
